A study of Mus musculus with 6 samples.

Results

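The collagen-modifying set consists of 10 genes that hydroxylate, chaperone and crosslink collagen: the prolyl 4-hydroxylase alpha subunits P4ha1, P4ha2 and P4ha3, the prolyl 3-hydroxylase P3h1, the lysyl hydroxylases Plod1, Plod2 and Plod3, the collagen chaperone Serpinh1 and the lysyl oxidases Lox and Loxl2. They were chosen by gene symbol from a deposited table of 28802 genes, in which all 10 were found. Poly(A) RNA labelled as mouse cranial bone was sequenced in 6 libraries. The metformin scaffold group has 3 libraries at 500 µM metformin, a biguanide drug for type 2 diabetes, carried by a mineral composite that the labels call Met/alpha-CSH/nHA scaffold (alpha calcium sulfate hemihydrate with nano-hydroxyapatite). The control group has 3 libraries at 0 µM. Per the labels, both groups come from mice with a cranial defect of 5 mm. The sources used here give no strain, age or sex of the mice. The labels do not say whether control defects held the composite without drug or no material, so drug and carrier cannot be told apart, nor whether the libraries come from separate animals or cultures. Each p-value is thus set against a library-to-library spread that may be only technical.

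Collagen chains are modified while they are made in the endoplasmic reticulum. Prolyl 4-hydroxylation gives the triple helix its stability at body temperature, lysyl hydroxylation sets which crosslinks and sugars a chain can carry, and the chaperone encoded by Serpinh1 binds the folded helix until it is exported. Outside the cell, lysyl oxidases convert lysines and hydroxylysines to the aldehydes that crosslink fibrils. The hydroxylases use oxygen, iron, 2-oxoglutarate and ascorbate, and the lysyl oxidases use copper. Inherited loss of several of these genes causes brittle bone or connective tissue disease in humans, and P4ha1, P4ha2, Plod2 and Lox are known targets of hypoxia-inducible factor.

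Total estimated counts were between 63174927 and 70955139 per library. Mitochondrial genes took 6.96%, 7.74% and 8.58% of counts in scaffold libraries and 6.40%, 7.16% and 7.06% in control libraries, with overlap. The osteoblast markers Runx2, Sp7, Alpl, Ibsp, Bglap and Col1a1 were all at 1 FPKM or more (the authors' measure of level, scaled for gene length and library depth). The markers of endothelium, red cells, leukocytes, neutrophils and macrophages were all under 1 FPKM, although the label is bone tissue. Whether the RNA came from defect tissue or from cultured cells was not tested. The summed osteoblast markers were at 4339 to 4433 FPKM in scaffold libraries and 3332 to 3875 FPKM in control libraries, with 4 of the 6 higher by the test. Most of this difference was Ibsp, at a mean of 2116 FPKM in scaffold libraries and 1266 FPKM in control libraries. Runx2 and Col1a1 did not pass, at log2 fold changes of -0.17 and 0.03 (edgeR adjusted p = 0.179 and 0.877). The 4 osteocyte markers summed to 3.89 to 5.86 FPKM in scaffold libraries and 1.41 to 1.55 FPKM in control libraries, with Dmp1 and Phex higher by the test and Sost and Fgf23 at or near 0. The osteoclast list summed to 119 to 129 FPKM in scaffold libraries and 100.3 to 112 FPKM in control libraries, nearly all of it Ctsk, which did not pass the test, with Acp5 and Ocstamp at or near 0. Of the 5 chondrocyte markers, Acan, Matn1 and Col10a1 were at or near 0 and Col2a1 rose. Sox9 did not rise, at 22.3, 25.46 and 24.7 FPKM in scaffold libraries and 27.8, 27.9 and 25.50 FPKM in control libraries. Its log2 fold change was -0.13 (edgeR adjusted p = 0.325). The list summed to 80.2 to 80.9 FPKM in scaffold libraries and 56.3 to 62.3 FPKM in control libraries, a rise that came from Col2a1. The part of these markers in the results on collagen enzymes was not tested. In bulk RNA, fewer cells of a type and less RNA per cell cannot be told apart.

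With the metformin scaffold, P4ha1, P4ha2, Plod2 and Plod1 rose by 1.38-fold, 1.29-fold, 1.19-fold and 1.22-fold, and the other 6 members did not pass the test. Among the isoenzymes, the third prolyl hydroxylase subunit, P4ha3, stood at 0.971-fold and the third lysyl hydroxylase, Plod3, at 1.09-fold. The type I collagen genes Col1a1 and Col1a2, the main substrates in bone, stood at 1.02-fold and 1.03-fold. All 10 members passed the filter on low counts and entered edgeR's quasi-likelihood fit of 17375 genes, where a Benjamini-Hochberg adjusted p under 0.05 counts as a call. The 4 higher and 0 lower members stand against a background of 2.85% of all tested genes called higher and 1.46% called lower (4.31% in either direction). The members were chosen with earlier results of these data known, so this and the following contrasts describe the set and do not test it. Among genes at a mean of at least 5 FPKM, which 9 of the members reach, 4.23% were called higher and 6.61% in either direction. Of all calls 66.2% were higher (496 against 253 lower), as were 293 of the 458 calls among genes at 5 FPKM or more. The share of higher calls was 53.0% with library totals alone (429 against 380) and 52.5% with weighted limma. It was 54.9% in a separate fit of only the genes at 5 FPKM or more. The median log2 fold change of the 10 was 0.17, against -0.0045 over all genes tested, and 7 had an unadjusted p under 0.05, against 18.1% of all tested genes. In CPM (counts scaled to library size, with TMM factors), the groups did not overlap for 7 of the 10 members, against 24% of all tested genes. The count of 4 fell to 2 without scaffold replicate 3, without control replicate 2 and without control replicate 3. DESeq2 called 5 members higher and limma on log2(FPKM + 1) called 1, P4ha1.

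**Figure D1:**
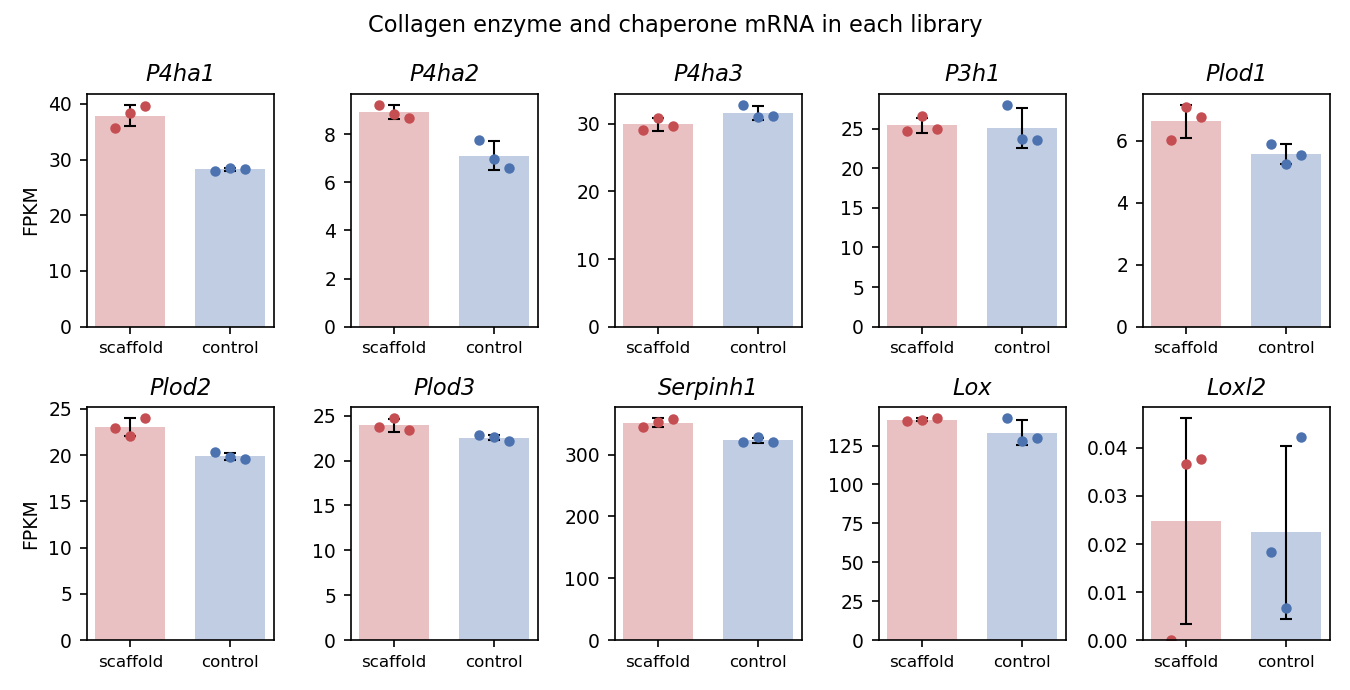
FPKM of each of the 10 genes, with 1 panel per gene and its own axis from 0. Bars are means, error bars are SD (n = 3 libraries per group) and points are libraries; the groups stand apart for P4ha1 (35.7 to 39.6 FPKM in scaffold libraries and 27.9 to 28.5 FPKM in control libraries) and overlap for P3h1, Lox and Loxl2.

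The levels spanned a wide range. Over all 6 libraries, Serpinh1 was the most abundant transcript per length, at a mean of 338 FPKM, followed by Lox at 137 FPKM. Next came P4ha1 at 33.1 FPKM and P4ha3 at 30.8 FPKM, whose order in FPKM differed between the groups. P4ha1 was above P4ha3 in all scaffold libraries and below it in all control libraries, without overlap in either. P3h1 at 25.2 FPKM and Plod3 at 23.2 FPKM overlapped in scaffold libraries and not in control libraries, and the same held for Plod3 and Plod2, at 21.5 FPKM. Within each scaffold library, P3h1 was still above Plod3 (24.6 against 23.7, 26.5 against 24.7 and 25.0 against 23.3 FPKM). Plod3 was above Plod2 in scaffold replicates 1 and 2 and below it in scaffold replicate 3. P4ha2 at 8.01 FPKM was above Plod1 at 6.09 FPKM within each group, without overlap, and only the pooled ranges met. Loxl2 was at the floor, with a mean of 0.0236 FPKM.

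Prolyl 4-hydroxylase is a tetramer of catalytic alpha subunits, each from 1 of 3 genes, and beta subunits from P4hb. P4ha1 (ENSMUSG00000019916, chromosome 10, 59323296 to 59373304, plus strand, GRCm38) had 35.7, 38.4 and 39.6 FPKM in the scaffold libraries and 27.9, 28.5 and 28.3 FPKM in the control libraries. Every scaffold library was above every control library by more than the spread within either group. On CPM, P4ha1 averaged 177 ± 9.69 in scaffold libraries and 128 ± 2.12 in control libraries (SD, n = 3 each), which gave a log2 fold change of 0.46 with an SE of 0.06 (edgeR adjusted p = 0.00142). It kept its call in all 16 alternatives, at log2 fold changes between 0.41 and 0.51 and adjusted p between 1.17e-13 and 0.0157.

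P4ha2 (ENSMUSG00000018906, chromosome 11, 54100095 to 54131662, plus strand) had 9.23, 8.85 and 8.67 FPKM in scaffold libraries and 7.76, 6.97 and 6.59 FPKM in control libraries. The groups did not overlap, and control replicate 1 was nearest to the scaffold libraries. P4ha2 rose, at a log2 difference of 0.37 ± 0.06 (SE) and an edgeR adjusted p of 0.00831. Its adjusted p was 0.0618 with limma on log2(FPKM + 1), and it passed in all 6 fits that left out a library, at adjusted p up to 0.0480. P4ha3 (ENSMUSG00000051048, chromosome 7, 100285520 to 100319699, plus strand) had 29.1, 30.9 and 29.7 FPKM in scaffold libraries and 32.8, 31.0 and 31.1 FPKM in control libraries. The scaffold libraries were lower in FPKM without overlap, while in TMM-scaled CPM the groups overlapped, at 103 to 109 CPM in scaffold libraries and 108 to 113 CPM in control libraries. The log2 fold change of P4ha3 was -0.04, with a 95% interval from -0.15 to 0.07 (edgeR adjusted p = 0.727).

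The bases before the starts of these 3 genes are shown because the subunit genes share a reaction and differ in the test. They are the 250 bases before the RefSeq start (GRCm38.p6, plus strand), chr10:59323046-59323295 for P4ha1, chr11:54100674-54100923 for P4ha2 and chr7:100285270-100285519 for P4ha3. None holds an annotated exon base, and the P4ha2 window lies inside the gene's span, since the RefSeq start is further downstream than the first one annotated. Capitals mark ACGTG and GCGTG on either strand (CACGT and CACGC as printed), the core letters of the site that hypoxia-inducible factor binds.
P4ha1: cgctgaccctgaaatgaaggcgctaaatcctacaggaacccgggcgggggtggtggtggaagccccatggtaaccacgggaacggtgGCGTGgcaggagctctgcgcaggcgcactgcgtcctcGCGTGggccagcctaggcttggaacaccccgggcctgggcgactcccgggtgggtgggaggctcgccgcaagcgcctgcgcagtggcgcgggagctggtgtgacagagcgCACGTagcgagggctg
P4ha2: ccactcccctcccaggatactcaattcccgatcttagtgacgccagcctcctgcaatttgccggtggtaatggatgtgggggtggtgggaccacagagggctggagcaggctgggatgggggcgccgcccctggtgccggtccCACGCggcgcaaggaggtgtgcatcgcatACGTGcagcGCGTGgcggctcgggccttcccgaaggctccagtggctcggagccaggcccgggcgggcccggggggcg
P4ha3: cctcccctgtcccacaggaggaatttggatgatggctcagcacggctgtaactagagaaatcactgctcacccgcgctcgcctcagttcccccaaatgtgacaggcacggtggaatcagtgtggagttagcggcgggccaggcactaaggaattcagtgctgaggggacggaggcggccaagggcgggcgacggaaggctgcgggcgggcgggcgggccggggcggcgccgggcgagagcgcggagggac
The window of P4ha1 holds 3 matches, at -163, -126 and -16 from the start, and that of P4ha2 holds 3, at -107, -78 and -69. The window of P4ha3 holds none, which says only that these letters are not in this window. Of all 32851 windows of this length in the RefSeq promoter table, 38.6% hold at least 1 match and 16.7% hold 2 or more. A CACGTG would count at both of its overlapping positions. Sequences were matched for 7 of the 10 members in 8 windows, since P3h1 has 2 starts. Matches stood in 7 of these 8 windows, and 5 windows (62.5%) held 2 or more. There were 4 for Plod3, 2 in each window of P3h1 and 1 each for Plod1 and Serpinh1. Windows with and without a called change thus hold the letters. Whether any of these sites is bound or acts on the genes was not tested. The 8 windows had a median GC content of 62.6%, against 52.4% for all windows, and the letters searched are themselves rich in G and C.

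P3h1, whose product forms a complex with those of Crtap and Ppib and hydroxylates a few prolines of each type I chain at another carbon, did not pass the test. P3h1 (ENSMUSG00000028641, chromosome 4, 119232915 to 119248975) had 24.6, 26.5 and 25.0 FPKM in scaffold libraries and 28.0, 23.7 and 23.5 FPKM in control libraries. Control replicate 1 was above all scaffold libraries and the other 2 control libraries were below them. The log2 fold change was 0.06, with a 95% interval from -0.09 to 0.21 (edgeR adjusted p = 0.726), and 0.14 without control replicate 1 (edgeR adjusted p = 0.217). Its complex partners Crtap and Ppib stood at log2 fold changes of -0.07 (interval -0.19 to 0.04) and -0.02 (interval -0.16 to 0.13). Both were named after their values were seen.

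Of the lysyl hydroxylases, Plod2 acts on the telopeptide lysines that start pyridinoline crosslinks. Plod2 (ENSMUSG00000032374, chromosome 9, 92542223 to 92608428) had 23.0, 22.1 and 24.0 FPKM in scaffold libraries and 20.3, 19.8 and 19.6 FPKM in control libraries. The groups did not overlap, and Plod2 rose, at a log2 difference of 0.25 ± 0.05 and an edgeR adjusted p of 0.0233. It missed the threshold without scaffold replicate 3 (adjusted p = 0.131), control replicate 2 (0.0953) or control replicate 3 (0.103), and in limma on log2(FPKM + 1) (0.0736). Gm38391, on the other strand, overlaps 346 exon bases of Plod2 at a mean of 0.411 FPKM.

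Plod1, which acts on lysines within the helix, is the lowest of the 3 lysyl hydroxylase genes. Plod1 (ENSMUSG00000019055, chromosome 4, 147909753 to 147936767, minus strand) had 6.02, 7.08 and 6.76 FPKM in scaffold libraries and 5.89, 5.24 and 5.54 FPKM in control libraries. Scaffold replicate 1 and control replicate 1 nearly met. It rose at a log2 difference of 0.29 ± 0.07 and an edgeR adjusted p of 0.0465, close to the threshold. Plod1 missed it without scaffold replicate 2 (adjusted p = 0.166), scaffold replicate 3 (0.184), control replicate 1 (0.0506), control replicate 2 (0.164) or control replicate 3 (0.132), and had an adjusted p of 0.0676 with scaling to library totals. In all, 5 of its 16 alternatives kept the call and all 16 kept the direction.

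Plod3 encodes the lysyl hydroxylase that also transfers sugars to hydroxylysine. Plod3 (ENSMUSG00000004846, chromosome 5, 136987019 to 136996648) had 23.7, 24.7 and 23.3 FPKM in scaffold libraries and 22.8, 22.6 and 22.2 FPKM in control libraries. The groups stood apart by a small margin, and the log2 fold change of 0.12 (interval 0.02 to 0.23) had an unadjusted p of 0.0264 and an edgeR adjusted p of 0.199. Znhit1, on the other strand, overlaps 785 exon bases of Plod3 and stood at a mean of 10.96 FPKM. The sources used here do not say whether counting used the strand, so reads in that stretch cannot be assigned with certainty.

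Serpinh1, which encodes the collagen chaperone also called HSP47, was abundant in both groups. Serpinh1 (ENSMUSG00000070436, chromosome 7, 99345376 to 99353239, minus strand) had 344, 353 and 358 FPKM in scaffold libraries and 321, 328 and 321 FPKM in control libraries. All scaffold libraries were above all control libraries, but by a small step. Its log2 fold change was 0.16 (interval 0.05 to 0.28; edgeR adjusted p = 0.118), and DESeq2 gave an adjusted p of 0.00463, so the call differs between tools.

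Lox, the main lysyl oxidase transcript here, is on chromosome 18 (ENSMUSG00000024529). Lox had 140.5, 142 and 142 FPKM in scaffold libraries and 143, 128 and 130 FPKM in control libraries. Control replicate 1 was above every scaffold library in FPKM, and the other 2 control libraries were below them. In TMM-scaled CPM the groups did not overlap, at 760 to 777 CPM in scaffold libraries and 675 to 745 CPM in control libraries. The log2 fold change was 0.13 (interval 0.00146 to 0.25; edgeR adjusted p = 0.271), and 0.17 without control replicate 1 (edgeR adjusted p = 0.0855). The antisense gene AC161119.1 overlaps 995 exon bases of Lox and stood at a mean of 5.17 FPKM. Control replicate 1 also carried the largest share of type I collagen, with Col1a1 and Col1a2 at 3.90%, 3.87% and 3.42% of counts in scaffold replicates 1 to 3 and 4.24%, 3.46% and 3.44% in control replicates 1 to 3.

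Loxl2, a lysyl oxidase known for crosslinking type IV collagen, was at the limit of detection. Loxl2 (ENSMUSG00000034205, chromosome 14, 69609068 to 69695834, overlapped by the antisense gene Gm27177) had 0, 16 and 15 estimated counts in scaffold libraries and 7, 3 and 18 in control libraries. These are low counts, and the groups overlapped (edgeR adjusted p = 0.952). The interval of its log2 fold change, from -2.03 to 2.39, leaves a change of several fold in either direction undetectable at this depth.

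**Figure D2:**
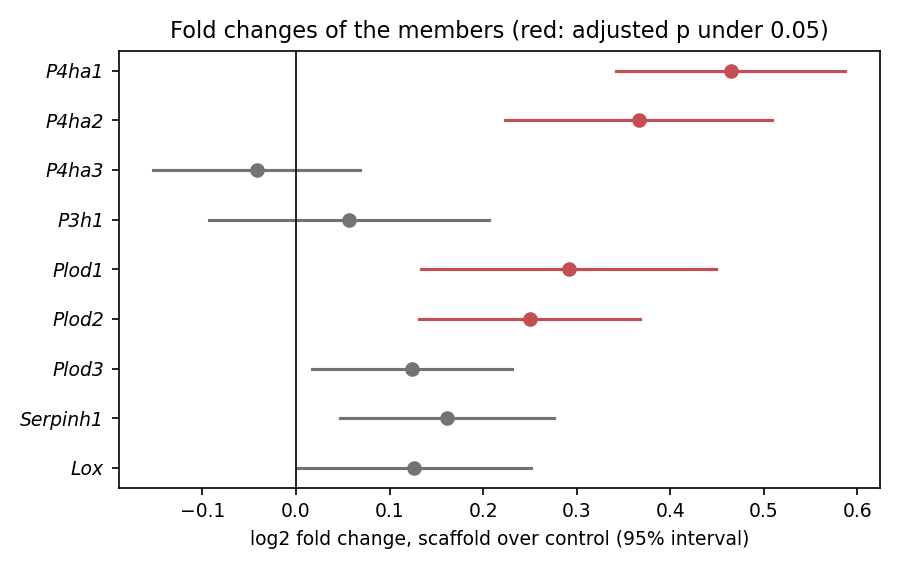
Log2 fold change of 9 of the 10 genes, scaffold over control, with 95% intervals from edgeR; Loxl2 is left out for its few reads. P4ha1 (0.46) and P4ha2 (0.37) lie highest, Plod1 (0.29) and Plod2 (0.25) follow in red as past the threshold, and the intervals of P4ha3 and P3h1 span 0.

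The make-up of the isoenzyme families was set out as percent of the family's summed FPKM in each library. P4ha1 made up 48.3%, 49.2% and 50.7% of the alpha subunit mRNA in scaffold libraries and 40.8%, 42.9% and 42.9% in control libraries. P4ha3 made up 39.3%, 39.5% and 38.1% in scaffold libraries and 47.9%, 46.6% and 47.1% in control libraries. So in FPKM P4ha1 was the leading subunit transcript in every scaffold library, and P4ha3 in every control library. In TMM-scaled CPM, which is not scaled for gene length, P4ha1 was above P4ha3 in control libraries too, at 126 to 130 CPM against 108 to 113 CPM. The P4ha1 share was 7.22 percentage points higher in scaffold libraries and the difference in the P4ha3 share was -8.25 points (exact permutation test, two-sided, p = 0.1 for each, which is the smallest p that 3 against 3 allows). Shares within a family are tied, so a higher P4ha1 share by itself lowers the P4ha3 share. The P4ha3 level did not pass the test (log2 fold change -0.04, edgeR adjusted p = 0.727). Summed over the 3 subunits, the level was 76.7 ± 2.31 FPKM in scaffold libraries and 67.0 ± 1.37 FPKM in control libraries (SD, n = 3 each), without overlap. P4hb, the beta subunit, stood at 343 ± 12.1 FPKM in scaffold libraries and 373 ± 10.4 FPKM in control libraries. It was lower in scaffold libraries without overlap in FPKM and in CPM, but did not pass the test. Its log2 fold change was -0.08 (interval -0.20 to 0.04, edgeR adjusted p = 0.478).

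Within the lysyl hydroxylases, Plod3 made up 44.7% ± 1.40 of the summed FPKM in scaffold libraries and 47.0% ± 0.462 in control libraries (SD, n = 3 each), without overlap. The Plod3 level itself was higher in scaffold libraries, at 23.3 to 24.7 FPKM against 22.2 to 22.8 FPKM in control libraries. The shares of Plod1 and Plod2 overlapped between groups. Within the lysyl oxidases, Lox made up 79.1% ± 0.255 in scaffold libraries and 79.3% ± 0.438 in control libraries, which overlapped. Loxl1, an oxidase needed for elastic fibres in mice, made up 3.57% ± 0.390 in scaffold libraries and 2.44% ± 0.157 in control libraries. Loxl3 made up 9.25% ± 0.459 in scaffold libraries and 10.8% ± 0.544 in control libraries, and Loxl4 made up 8.07% ± 0.235 in scaffold libraries and 7.36% ± 0.330 in control libraries. The groups did not overlap for these 3 shares. In all, 14 shares and sums were compared by the exact permutation test, with a smallest Benjamini-Hochberg adjusted p of 0.175, and none could pass 0.05 in this design.

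**Figure D3:**
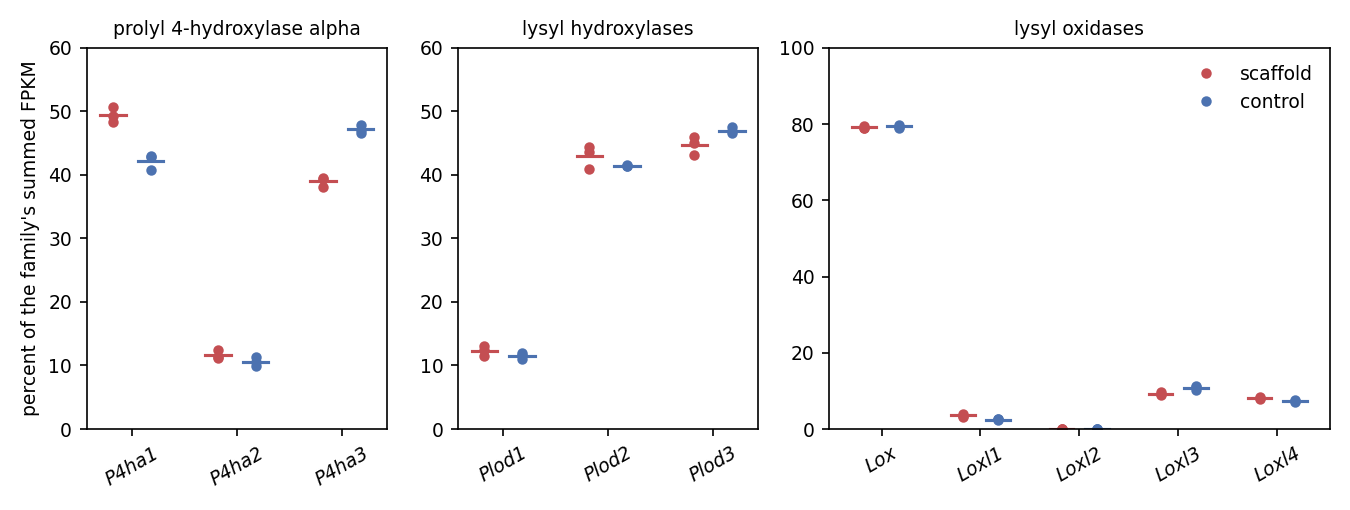
Percent of the family's summed FPKM for each isoenzyme gene, by library (points) and group mean (lines), scaffold in red and control in blue. P4ha1 and P4ha3 change places between the groups in FPKM. Shares within a family are tied, and the P4ha3 level itself did not pass the test. Lox holds a mean of 79.1% of the lysyl oxidase FPKM in scaffold libraries and 79.3% in control libraries.

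The partner list holds 30 other genes of collagen folding, modification, export and processing, of which 29 were tested. Loxl1 rose, Pcolce2 fell and the other 27 did not pass, with a median log2 fold change of -0.02 (-0.0325 without scaffold replicate 1, -0.0344 without control replicate 1 and -0.00523 without control replicate 2). Loxl1 had 6.26, 5.74 and 7.19 FPKM in scaffold libraries and 4.03, 4.10 and 4.12 FPKM in control libraries, and rose at a log2 difference of 0.69 ± 0.09, with an edgeR adjusted p of 0.00236. Loxl1 was higher in all 3 scaffold libraries and kept its call in every alternative. Pcolce2, an enhancer of procollagen C-proteinase, had 2.59, 2.83 and 2.46 FPKM in scaffold libraries and 3.86, 4.15 and 3.07 FPKM in control libraries (log2 fold change -0.45 ± 0.11, edgeR adjusted p = 0.0445). Pcolce2 kept its call among fits that leave out a library only without control replicate 3; without scaffold replicates 1, 2 and 3 its adjusted p was 0.0844, 0.0885 and 0.190, and without control replicates 1 and 2 it was 0.125 and 0.173. The number of higher partners was 2 without control replicate 1. Of the abundant partners, Pcolce stood at 0.0036 and the peptidyl-prolyl isomerase gene Fkbp9 at -0.05 on the log2 scale (edgeR adjusted p = 0.986 and 0.691).

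Among the collagen chains, 4 of 18 tested rose and none fell, with a median log2 fold change of 0.12, which was 0.19 without control replicate 1. Col2a1, the type II chain best known from cartilage, had 57.8, 55.4 and 55.9 FPKM in scaffold libraries and 34.4, 30.2 and 30.8 FPKM in control libraries (log2 fold change 0.87 ± 0.06, edgeR adjusted p = 5e-05). Col11a2, of the type XI collagen that copolymerises with type II, rose by 0.98 ± 0.13 (edgeR adjusted p = 0.00223). The type V chains Col5a3 and Col5a2, which help start fibrils, rose by 0.39 ± 0.08 and 0.24 ± 0.05 (edgeR adjusted p = 0.0218 and 0.0328). The count was 2 without scaffold replicate 2, scaffold replicate 3, control replicate 2 or control replicate 3, and 7 without control replicate 1. Col5a3 and Col5a2 both missed the threshold in each of those first 4 fits, at adjusted p of 0.0812 to 0.152, and in limma on log2(FPKM + 1) (0.117 and 0.113). Col1a1 had 2250, 2223 and 2017 FPKM in scaffold libraries and 2466, 2040 and 2014 FPKM in control libraries, and control replicate 1 was the highest of the 6. Its log2 fold change was 0.03 (interval -0.14 to 0.20), that of Col1a2 was 0.05 (interval -0.15 to 0.24), and Col6a1 stood at 0.22 (edgeR adjusted p = 0.0763, and 0.0275 without control replicate 1).

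The hypoxia list holds targets and also subunit genes of hypoxia-inducible factor, such as Hif1a, and none of the 10 members. Of its 20 tested genes 9 rose and none fell, with a median log2 fold change of 0.26. Car9, the carbonic anhydrase induced by hypoxia-inducible factor, had 9.20, 10.1 and 10.002 FPKM in scaffold libraries and 2.75, 2.97 and 2.58 FPKM in control libraries (log2 fold change 1.85 ± 0.09). Ankrd37 rose by 2.24 ± 0.18, the repressor gene Bhlhe40 by 1.02 ± 0.08, the glycolytic gene Pgk1 by 0.53 ± 0.07, the mitophagy gene Bnip3 by 0.49 ± 0.06 and the lactate dehydrogenase gene Ldha by 0.45 ± 0.06 (edgeR adjusted p up to 0.00276). P4ha1 at 0.46 lay between Ldha and Bnip3, and P4ha2 at 0.37 lay below all 3 of Pgk1, Bnip3 and Ldha. Hif1a, the oxygen-regulated subunit, stood at -0.11 ± 0.05 (edgeR adjusted p = 0.272), Vegfa at 0.18 ± 0.06 (0.125) and Bnip3l at -0.09 ± 0.06 (0.425). The list was chosen with these rises already known, and it is given for scale.

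The cofactor list holds genes that supply ascorbate, iron, 2-oxoglutarate or copper to these enzymes, or whose products bind or process lysyl oxidase. Of its 21 tested genes 1 rose and 4 fell, with a median log2 fold change of -0.06 (-0.0337 without scaffold replicate 3 and -0.0174 without control replicate 1). Tfrc, the transferrin receptor for iron uptake, had 17.0, 16.0 and 14.8 FPKM in scaffold libraries and 26.9, 28.3 and 25.9 FPKM in control libraries (log2 fold change -0.72 ± 0.06, edgeR adjusted p = 0.000247). Slc23a2, a sodium-dependent ascorbate transporter, had 18.8, 19.3 and 19.0 FPKM in scaffold libraries and 25.0, 23.6 and 23.6 FPKM in control libraries (log2 fold change -0.30 ± 0.05, edgeR adjusted p = 0.00579). Fbln5, an elastic fibre protein that binds lysyl oxidase-like proteins, and Postn, a matrix protein known to promote lysyl oxidase activation in mice, fell, at log2 fold changes of -0.41 and -0.39 and edgeR adjusted p of 0.00178 and 0.00349. With limma on log2(FPKM + 1), the adjusted p of Postn was 0.0628. Idh1, which makes 2-oxoglutarate in the cytosol, rose by 0.30 ± 0.05 (edgeR adjusted p = 0.00842) and missed the threshold without scaffold replicate 3 (0.0618), which left no higher gene in the list; without scaffold replicate 1 or control replicate 1 there were 2. Of the abundant genes that did not pass, Fn1 stood at 0.14 ± 0.09, Fmod at -0.16 ± 0.07 and Fth1 at -0.16 ± 0.06 (edgeR adjusted p = 0.420, 0.272 and 0.200). Without control replicate 1, Fn1 passed at 0.26 (edgeR adjusted p = 0.0222).

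**Figure D4:**
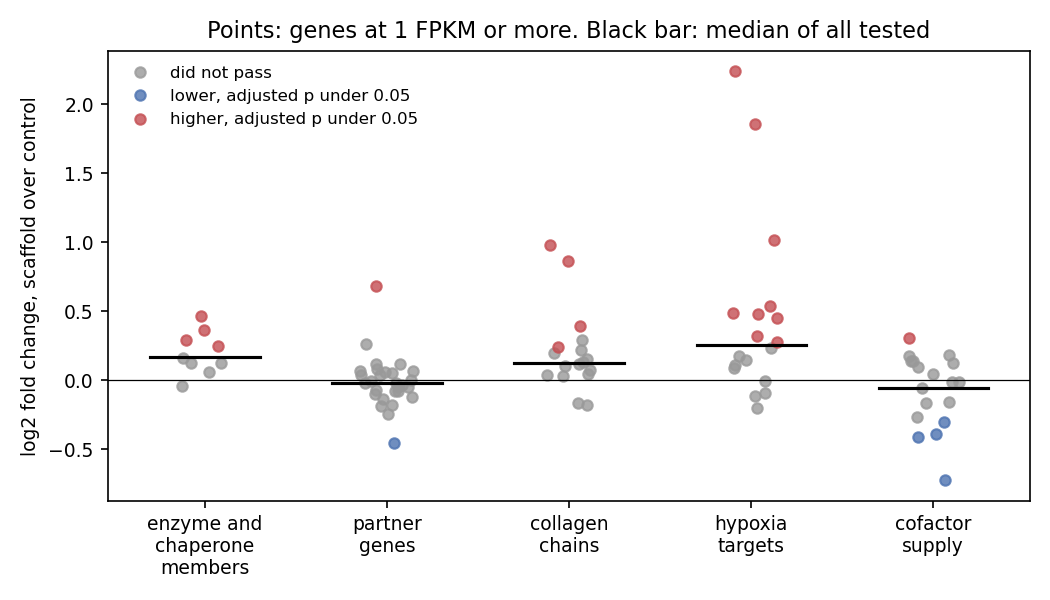
Log2 fold change, scaffold over control, of the genes at a mean of at least 1 FPKM in the collagen-modifying set and the 4 related lists (points; red higher, blue lower, grey not past the threshold), with each list's median over all its tested genes as a black bar. The medians run from 0.26 for the hypoxia list and 0.17 for the collagen-modifying set to -0.06 for cofactor supply, and the partner genes centre near 0 at -0.02.

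The genes most like each called member were taken by Pearson r of log2(CPM + 1) over the 6 libraries, among 6925 genes at a mean of at least 5 FPKM, as a description that the difference between the groups shapes. For P4ha1 they were Pfkl (r = 0.998), Bzw2 (0.998) and Tpx2 (0.998), a phosphofructokinase, a translation regulator and a spindle assembly factor. For P4ha2 they were Vldlr (0.989), Slc35e1 (0.988) and C1qtnf6 (0.985). For Plod2 they were Antxr2 (0.998), Spats2 (0.997) and Cd109 (0.995), and for Plod1 Vegfa (0.996), Zdhhc8 (0.993) and Ankrd13a (0.992). No member was among the 3 genes most like another.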

How the data were processed

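Poly(A) RNA of 3 metformin scaffold and 3 control libraries was sequenced in pairs of 150 bases, per the labels' protocols. The deposited table gives FPKM and estimated counts per gene, both computed by the authors; the submitters' processing notes name fastp, HISAT2, StringTie, bcl2fastq 2.20, DESeq2 and edgeR without roles; no genome build is stated there. GENCODE M21 (GRCm38) holds 99.7% of the deposited gene identifiers, and 90.6% have the same ends in both; P4ha2 ends slightly later in GENCODE. Per library, 1202 to 1290 genes had a count of 4, against 582 to 680 with 3 and 323 to 402 with 5. A read pair may thus add about 4 counts, which was not tested further, and precision may be that of fewer reads than the totals show.

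Estimated counts, deposited as whole numbers, were tested two-sided with edgeR 4.0.16 (R 4.3.3; filterByExpr at a minimum count of 10, TMM, quasi-likelihood, Benjamini-Hochberg over 17375 genes). The standard error is the log2 fold change over the square root of F, and 95% intervals use the fit's total degrees of freedom. Alternatives used DESeq2 1.42.0, limma 3.58.1 on log2(FPKM + 1) or log2(FPKM + 0.1), other scalings and filters, and left out each library. Tests were run on simulated data first. No column was left without a sample. No 2 libraries were identical. The members and lists were chosen with earlier results of these data known. All members are named; of each other list, up to 6 called genes by smallest p and up to 3 uncalled genes by highest FPKM, and others are said to be chosen after their values were seen. Lists are described by counts and medians only.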

Additional observations from a re-analysis of the deposited data

How the results depend on the processing

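P4ha1 kept its direction and its call in all 16 alternatives, P4ha2 in 14, Plod2 in 11 and Plod1 in 5; all 4 kept their direction. Where a count moved, the cause was not tested. Over all genes, 833 rose and 477 fell with DESeq2, 260 rose with limma on log2(FPKM + 1) and 266 with a pseudocount of 0.1. With no filter 317 rose and 115 fell, and 380 fell with library totals alone. In the separate fit of only the genes at 5 FPKM or more, 311 rose. Both unweighted limma fits left 1 member, 2 collagen chains and 0 lower partners; with sample weights limma gave 3, 4 and 1. DESeq2 gave 7 chains, 2 higher and 2 lower partners; no filter gave 2 chains and 0 lower partners; genes at 5 FPKM or more gave 0 lower partners; counts divided by 4 gave 2 higher partners. Leaving out 1 library gave 234 to 610 higher and 89 to 358 lower genes, 2 to 4 members, 1 to 2 higher and 0 to 1 lower partners, 2 to 7 chains and 0 to 2 higher cofactor genes. Over all alternatives the median log2 fold change was 0.12 to 0.22 for members, -0.06 to -0.01 for partners, 0.08 to 0.19 for chains, 0.17 to 0.30 for the hypoxia list and -0.09 to -0.02 for cofactor genes.

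Values that changed sign lay near 0 or rested on few reads. Pcolce stood at -0.0329 with library totals, -0.0375 and -0.0376 in the unweighted limma fits, -0.0153 among genes at 5 FPKM or more, -0.00262 with counts divided by 4, and -0.0370 to 0.0646 without 1 library. Col1a1 stood at -0.00196 with library totals, at -0.00198 in both unweighted limma fits (0.0398 with weights), and at -0.0154 to 0.127 without 1 library. Col1a2 stood at -0.00956 to 0.162 and Loxl2 at -0.25 to 1.03 without 1 library. The difference in the Lox share was 0.055 points from estimated counts.

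The labels do not say whether the replicate numbers pair the libraries. Deviations of same-numbered libraries correlated at -0.11, -0.06 and 0.03 over 6925 genes, and those of differently numbered libraries at -0.23 to 0.24. With 3 libraries per group, whose deviations are tied by their mean, these values cannot settle it. A replicate block called 3 members, with Plod1 at an adjusted p of 0.0880 and Col5a2 at 0.0707, and turned Loxl2 to -0.0352. Loxl2 could not be tested in 6 alternatives, which drop low genes or give no adjusted p. Among the members, only Loxl2 had few reads, at 18 counts or fewer per library. Small changes can be missed in the other members too. In the simulated data, the test recovered 26% of changes at the smallest fold simulated and 100% at the largest. The estimated changes of the uncalled members were below that smallest fold. A member that did not pass may thus still have a small change.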
